A study of Mus musculus with 6 samples.

Results

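The tissue inhibitors of metalloproteinases (TIMPs) and the matrix metalloproteinases (MMPs) were followed in mouse hearts during a subcutaneous infusion of angiotensin II (Ang II). Ang II is the peptide hormone of the renin-angiotensin system, and its infusion is a standard model of cardiac hypertrophy and fibrosis. The genes were taken by symbol from the deposited table of RPKM values, which are reads scaled by transcript length and by the mapped reads of the library. They were Timp1, Timp2, Timp3, Timp4, Mmp2, Mmp3, Mmp9, Mmp12, Mmp14 and Mmp23, which is 10 of the 22556 genes in the table and includes all 4 mouse TIMPs and 6 MMPs. All mice were labelled wild type and all libraries were made from total RNA of the heart. Ang II was delivered by miniosmotic pumps at 1000 ng/kg/min for 7 days or for 28 days, and the control libraries were labelled as day 0, with no statement of what those mice received. Each of the 3 groups had 2 libraries, so every mean below has n = 2. Whether the libraries are of different mice is not in the labels, so the p-values measure the spread between these libraries, which may be technical. Strain, age and sex are not stated in the labels of these mice.

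MMPs are zinc-dependent endopeptidases that cut collagens, other matrix proteins and many cell surface proteins, and most are made as inactive proenzymes. TIMPs bind the active site of MMPs and block them, and Timp3 and some of the others also block members of the related ADAM and ADAMTS families. In the heart this balance of protease and inhibitor is known for its part in the turnover of the collagen network between muscle cells. An RNA level says nothing of how much proenzyme was activated or how much inhibitor was bound.

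RefSeq promoter windows of build GRCm38.p6 were at hand for 8 of the 10 genes, as 10 windows, and the 250 bases before the transcript start were searched. The windows below belong to the genes with some of the largest increases (Timp1, Mmp14, Mmp3) and to the 2 TIMPs that fell (Timp3, Timp4), and are shown so that the letters upstream of genes with opposite changes can be compared. They are written 5′ to 3′ on the gene's strand, and capitals mark matches, on either strand, to the AP-1 motif TGANTCA, the Ets core GGAAG, the Sp1 box GGGCGG or the TATA box TATAAA. Overlapping matches of different motifs were looked for and none occurred in these windows.
Timp1, chrX:20869916-20870165, plus strand: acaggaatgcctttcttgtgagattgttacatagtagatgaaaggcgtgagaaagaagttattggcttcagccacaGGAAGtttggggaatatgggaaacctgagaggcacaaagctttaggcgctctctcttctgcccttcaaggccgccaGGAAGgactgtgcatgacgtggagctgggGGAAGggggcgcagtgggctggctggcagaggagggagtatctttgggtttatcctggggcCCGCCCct
Mmp14, chr14:54431348-54431597, plus strand: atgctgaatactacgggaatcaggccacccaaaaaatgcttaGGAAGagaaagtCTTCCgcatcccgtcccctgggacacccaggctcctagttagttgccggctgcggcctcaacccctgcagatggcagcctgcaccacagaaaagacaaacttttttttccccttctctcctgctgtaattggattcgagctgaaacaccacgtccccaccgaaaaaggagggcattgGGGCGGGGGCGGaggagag
Mmp3, chr9:7445572-7445821, plus strand: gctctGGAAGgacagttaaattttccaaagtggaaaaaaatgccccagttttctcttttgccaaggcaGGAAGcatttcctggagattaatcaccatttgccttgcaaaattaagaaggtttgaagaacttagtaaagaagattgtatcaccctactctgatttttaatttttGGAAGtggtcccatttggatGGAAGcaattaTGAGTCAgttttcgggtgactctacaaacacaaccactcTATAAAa
Timp3, chr10:86300162-86300411, plus strand: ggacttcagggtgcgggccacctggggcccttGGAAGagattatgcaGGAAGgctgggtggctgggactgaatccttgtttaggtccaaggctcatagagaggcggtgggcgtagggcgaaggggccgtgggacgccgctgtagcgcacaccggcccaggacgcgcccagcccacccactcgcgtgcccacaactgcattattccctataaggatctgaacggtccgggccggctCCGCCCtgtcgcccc
Timp4, chr6:115252206-115252455, minus strand: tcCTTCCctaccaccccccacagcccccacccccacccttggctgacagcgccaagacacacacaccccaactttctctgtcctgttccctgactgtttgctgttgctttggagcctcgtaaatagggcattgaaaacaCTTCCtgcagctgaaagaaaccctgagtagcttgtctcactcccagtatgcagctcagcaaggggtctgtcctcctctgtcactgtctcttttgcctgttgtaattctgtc

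The AP-1 motif, which Fos and Jun family proteins bind, lay 46 to 40 bases before the start of Mmp3. Among the other genes it was found only in a second window of Mmp12, 44 to 38 bases before that start, and 6.75% of all 32851 windows in the table held it. The TATA box was matched in Mmp3 alone, at 7 to 2 bases before the start, and in 12.4% of all windows. The Sp1 box was present in Timp1, Timp2, Timp3 and Mmp14, and in 32.7% of all windows. The Ets core was present in every one of the 8 genes and in 64.1% of all windows. A match describes letters in a window and is not a bound site.

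Read depth was alike across libraries. Relative to the first control library it lay between 0.890 and 1.17, as read from the smallest steps in the values, and 15636 to 16036 genes were above 0. Genes entered the test if their mean RPKM over the 6 libraries was at least 1, which 11096 genes and 8 of the 10 TIMPs and MMPs did; Mmp9 and Mmp12 did not. All 8 also had a control mean of at least 1, so none passed through the infused groups alone. This was not required of the genes in the lists below, some of which passed only through an infused group. Libraries stood apart in atrial transcripts. Myl7, the atrial myosin light chain, had 52.5 and 646 RPKM in the control libraries, 41.2 and 66.2 RPKM at 7 days and 341 and 182 RPKM at 28 days. Cardiomyocyte markers, the check of the labelled tissue, summed to between 45238 and 59634 RPKM in every library.

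The TIMPs were changed in opposite directions at 7 days. Timp1, the inducible and secreted member, and Timp2 were higher than in controls, and Timp3, the member that binds to the matrix, and Timp4, a member known for its high level in heart, were lower. All 8 tested TIMPs and MMPs passed the test at 7 days, 6 of them higher and 2 lower, against 15.4% of all tested genes in either direction, 13.2% higher and 2.27% lower. These genes were chosen with earlier results of these data known, so the count does not speak for the whole family. Of the 4 other MMPs that could be tested, 0 passed. The test was limma on log2(RPKM + 0.5), a gene was called at a Benjamini-Hochberg adjusted p under 0.05, with the adjustment made over every tested gene, and all log2 changes below are on that scale, which understates those of low genes. After 28 days, against control, Timp1 and Mmp14 were the 2 of the 8 that passed, both higher, against 4.41% of all tested genes in either direction, 2.87% higher and 1.54% lower. At 28 days against 7 days 5 passed, with Timp1, Timp2, Mmp2 and Mmp14 lower and Timp4 higher, against 4.67% of all tested genes, 0.406% higher and 4.26% lower. The median log2 change over the 8 was 1.25, 0.37 and -0.67 in these 3 comparisons, beside 0.14, 0.01 and -0.12 over all tested genes.

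**Figure D1:**
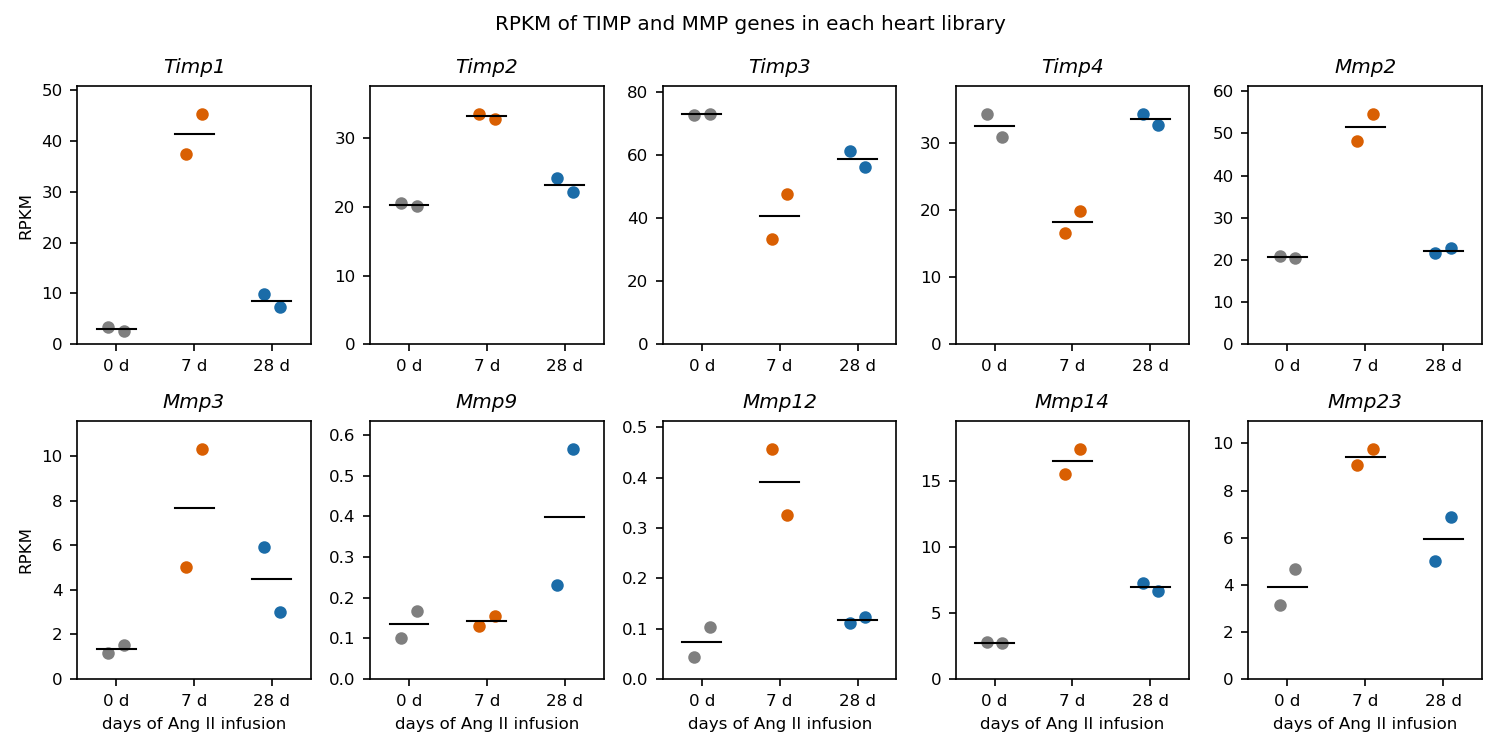
Each panel shows the RPKM of 1 gene in the 6 heart libraries at 0 (control), 7 and 28 days of Ang II infusion; points are libraries and bars are means of 2. Timp1 lies between 37.4 and 45.3 RPKM at 7 days and between 2.59 and 3.42 RPKM in controls, while Timp3 and Timp4 are lowest at 7 days, and Mmp9 and Mmp12 stay under 1 RPKM in every library.

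Timp1 had 3.42 and 2.59 RPKM in the control libraries, 37.4 and 45.3 RPKM at 7 days and 9.80 and 7.34 RPKM at 28 days. No library of one time overlapped with one of another, and the 7 day libraries were far above the rest. Timp1 rose at 7 days to a mean of 41.4 ± 5.62 RPKM, against 3.005 ± 0.591 RPKM in controls (SD), 13.8 times as high, with a log2 change of 3.58 ± 0.18 (SE; limma adjusted p = 0.000266). At 28 days it was 2.85 times the control mean (log2 change 1.37, adjusted p = 0.0143), and it was lower than at 7 days (log2 change -2.21, adjusted p = 0.00337). The 28 day call against control was lost without control replicate 1 (log2 change 1.54, adjusted p = 0.0615) or without control replicate 2 (1.20, adjusted p = 0.0678), and with no filter on low values (adjusted p = 0.0704). The 28 day call against 7 days was lost without 7 day replicate 2 (log2 change -2.08, adjusted p = 0.0526).

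Timp2, an inhibitor that also joins Mmp14 at the cell surface in the complex that activates pro-Mmp2, had 20.6 and 20.1 RPKM in controls, 33.6 and 32.9 RPKM at 7 days and 24.2 and 22.2 RPKM at 28 days. Its replicates lay close together, and the order of the groups was 7 days, then 28 days, then control with no overlap. Timp2 rose at 7 days, to 1.63 times the control mean (log2 change 0.69 ± 0.10, SE; adjusted p = 0.00567). At 28 days it stood at a log2 change of 0.18 against control, with a 95% interval of -0.05 to 0.41 (adjusted p = 0.318), and it was lower than at 7 days (log2 change -0.51, adjusted p = 0.0352). The 7 day call was lost without either control library (adjusted p = 0.0566 without replicate 1 and 0.0550 without replicate 2). The 28 day call against 7 days was lost without any single library (adjusted p between 0.0575 and 0.163), with the replicate number as a block (adjusted p = 0.0568), with median ratio scaling (0.134), with quantile normalization (0.0845), with no mean-variance trend (0.0548), with the 2 groups alone (0.0941) and under a fold threshold.

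Timp3, which binds to the matrix and is known to block Adam17 as well as MMPs, had 72.7 and 73.1 RPKM in controls, 33.4 and 47.7 RPKM at 7 days and 61.2 and 56.1 RPKM at 28 days. The controls were the highest and the 7 day libraries the lowest, with no overlap, and the 7 day pair was far wider than the control pair. Timp3 fell at 7 days to a mean of 40.6 ± 10.1 RPKM, against 72.9 ± 0.283 RPKM in controls (SD), or 0.557 times the control level (log2 change -0.86 ± 0.16, SE; adjusted p = 0.0165). The call was lost without control replicate 1 (adjusted p = 0.102) or without control replicate 2 (adjusted p = 0.0904), with log2 changes of -0.86 in both fits. At 28 days the log2 change was -0.31 against control (95% interval -0.70 to 0.07; adjusted p = 0.311) and 0.55 against 7 days (0.16 to 0.93; adjusted p = 0.115), and the value against 7 days was 0.29 without 7 day replicate 1.

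Timp4 had 34.4 and 30.9 RPKM in controls, 16.6 and 19.9 RPKM at 7 days and 34.3 and 32.8 RPKM at 28 days. The 7 day libraries were the lowest, and the 28 day libraries overlapped with the controls. Timp4 fell at 7 days, to 0.559 times the control mean (log2 change -0.82 ± 0.12, SE; adjusted p = 0.00665). At 28 days it was higher than at 7 days (log2 change 0.87 ± 0.12, SE; adjusted p = 0.0140) and differed from control by a log2 change of 0.04, with a 95% interval of -0.25 to 0.33 (adjusted p = 0.874). Its 7 day call was lost without control replicate 1 (log2 change -0.75, adjusted p = 0.0699), and its 28 day call against 7 days was lost without either 7 day library (adjusted p = 0.0654 without replicate 1 and 0.0651 without replicate 2). Timp3 and Timp4 were lower in both 7 day libraries than in each control library, of which replicate 1 was low and replicate 2 high in Myl7; the part of atrial tissue was not tested.

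The summed level of the 4 TIMPs overlapped between the times while its make-up shifted. The sum was 131 and 127 RPKM in controls, 121 and 146 RPKM at 7 days and 130 and 118 RPKM at 28 days. The mean sum at 7 days was above that of controls on the deposited scale, at 133 RPKM against 129 RPKM, and below it with median ratio scaling, at 123 RPKM against 134 RPKM. Timp1 made up 2.61% and 2.04% of that sum in controls, 30.9% and 31.1% at 7 days and 7.57% and 6.20% at 28 days. Timp3 made up 55.5% and 57.7% in controls, 27.6% and 32.7% at 7 days and 47.2% and 47.4% at 28 days. Timp4 made up 26.2% and 24.4% in controls, 13.7% in both 7 day libraries and 26.5% and 27.7% at 28 days. Timp3 was thus 21.2 and 28.3 times as high as Timp1 in the control libraries, 0.893 and 1.05 times as high at 7 days and 6.24 and 7.64 times as high at 28 days. These shares are of RNA levels per length and do not measure inhibitor protein.

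**Figure D2:**
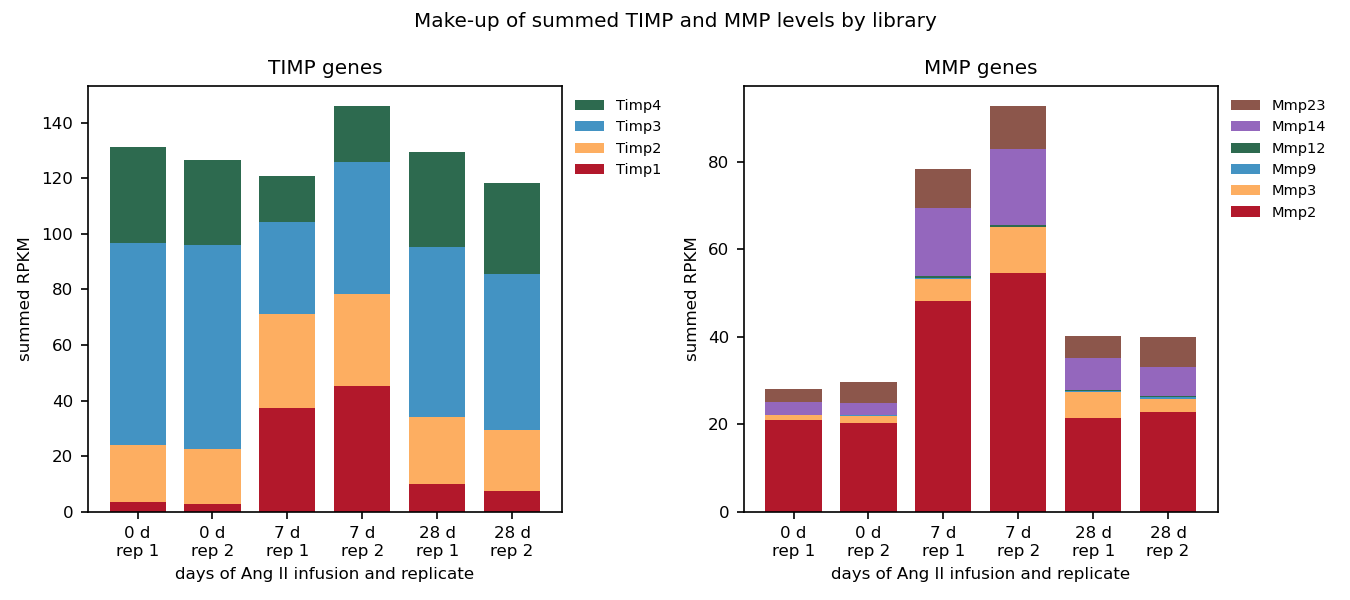
Stacked bars give the RPKM of each TIMP (one panel) and each MMP (the other) summed in every library, in order of 0, 7 and 28 days with the 2 replicates side by side. The TIMP sum lies between 118 and 146 RPKM in all libraries while Timp1 is about as large as Timp3 at 7 days. The sum of the 6 MMPs described, without the other MMPs, is 78.4 and 92.7 RPKM at 7 days, against 28.1 and 29.6 RPKM in controls.

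Among the proteases, the gelatinase Mmp2 was the most abundant in every group. Mmp2, which is known to be made mainly by fibroblasts and cuts denatured collagen and basement membrane collagen, had 20.9 and 20.3 RPKM in controls, 48.2 and 54.7 RPKM at 7 days and 21.5 and 22.7 RPKM at 28 days. The 7 day libraries stood far above the others, and the 28 day libraries were just above the controls. Mmp2 rose at 7 days to a mean of 51.5 ± 4.53 RPKM, against 20.6 ± 0.371 RPKM in controls (SD), 2.497 times as high (log2 change 1.30 ± 0.10, SE; adjusted p = 0.000871). It was lower at 28 days than at 7 days (log2 change -1.20 ± 0.10, SE; adjusted p = 0.00375), and against control its log2 change at 28 days was 0.10, with a 95% interval of -0.15 to 0.34 (adjusted p = 0.614). Both calls of Mmp2 held without each library in turn.

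Mmp14, the membrane-anchored protease also called MT1-MMP that cuts fibrillar collagen and activates pro-Mmp2, had 2.78 and 2.74 RPKM in controls, 15.5 and 17.4 RPKM at 7 days and 7.25 and 6.65 RPKM at 28 days. The 3 groups did not overlap, and the 28 day libraries lay between the other 2 groups. Mmp14 rose at 7 days to 5.98 times the control mean (log2 change 2.38 ± 0.11, SE; adjusted p = 0.000233) and was still 2.52 times the control mean at 28 days (log2 change 1.19 ± 0.11, SE; adjusted p = 0.00563). Against 7 days its log2 change at 28 days was -1.19 (adjusted p = 0.00558). The 28 day call against control was lost without control replicate 1 (log2 change 1.20, adjusted p = 0.0599), and the call against 7 days was lost without 7 day replicate 2 (log2 change -1.10, adjusted p = 0.0651). The ratio of Mmp14 to Timp2 RPKM was 0.135 and 0.136 in controls, 0.462 and 0.531 at 7 days and 0.300 in both 28 day libraries. The ratio of Mmp2 to Timp2 was 1.02 and 1.01 in controls, 1.44 and 1.66 at 7 days and 0.890 and 1.02 at 28 days.

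Mmp3, or stromelysin 1, which cuts non-fibrillar matrix proteins and activates other proenzymes, had 1.18 and 1.55 RPKM in controls, 5.02 and 10.3 RPKM at 7 days and 5.94 and 3.02 RPKM at 28 days. Both infused groups lay above the controls and overlapped with each other, and the replicates within each infused group were far apart. Mmp3 rose at 7 days to 5.62 times the control mean (log2 change 2.06 ± 0.37, SE; adjusted p = 0.0137). This call was lost without 7 day replicate 2 (log2 change 1.57, adjusted p = 0.0836) and also without either control library (1.92, adjusted p = 0.0857 for replicate 1; 2.20, adjusted p = 0.0517 for replicate 2). At 28 days the log2 change against control was 1.36, with a 95% interval of 0.49 to 2.23 (adjusted p = 0.0900), and against 7 days -0.70, with an interval of -1.57 to 0.17 (adjusted p = 0.316). The value against 7 days was -1.19 without 7 day replicate 1, -0.21 without 7 day replicate 2, -1.13 without 28 day replicate 1 and -0.26 without 28 day replicate 2.

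Mmp23, a small membrane protease that lacks the usual hemopexin domain, had 3.13 and 4.66 RPKM in controls, 9.07 and 9.79 RPKM at 7 days and 5.01 and 6.87 RPKM at 28 days. Mmp23 rose at 7 days to 2.42 times the control mean (log2 change 1.20 ± 0.20, SE; adjusted p = 0.0112). The groups did not overlap at any pair of times, but at 28 days the log2 change of 0.56 against control (95% interval 0.08 to 1.04; adjusted p = 0.170) and that of -0.64 against 7 days (-1.12 to -0.16; adjusted p = 0.132) missed the threshold. The value against control at 28 days was 0.31 without control replicate 1 and 0.35 without 28 day replicate 2. Its 7 day call was lost without control replicate 1 (log2 change 0.94, adjusted p = 0.0692), without 7 day replicate 1 (1.25, adjusted p = 0.0553) and without 7 day replicate 2 (1.15, adjusted p = 0.0877).

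**Figure D3:**
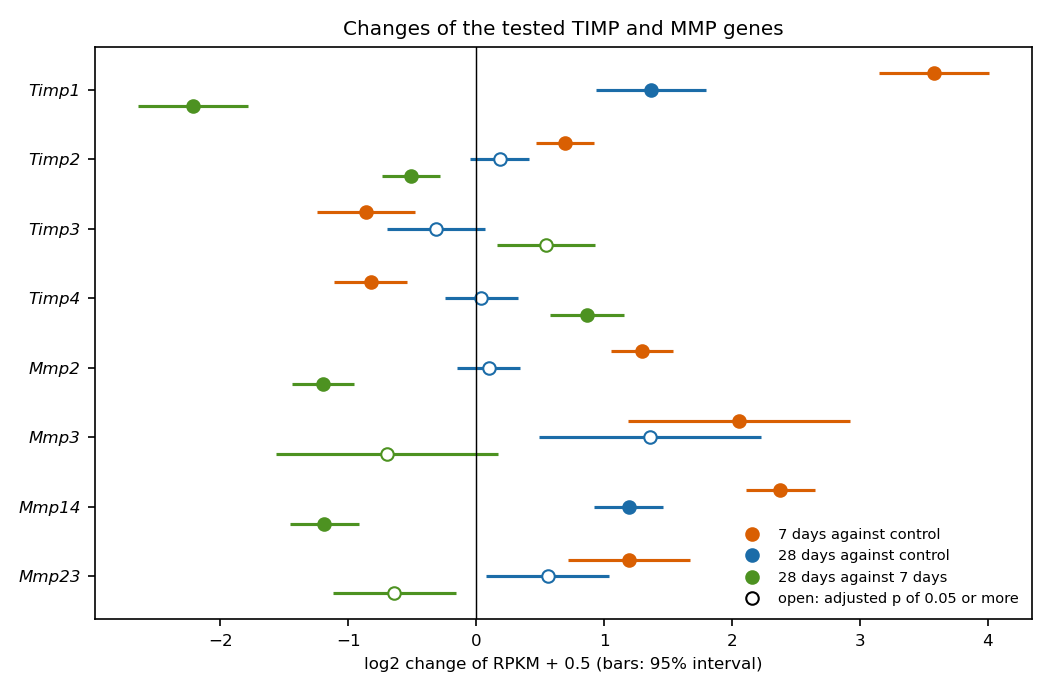
Log2 changes of RPKM + 0.5 for the 8 tested genes in 3 comparisons, with 95% intervals from limma as bars; filled points have an adjusted p under 0.05 and open points do not. At 7 days against control all 8 are filled, with Timp1 at 3.58 and Mmp14 at 2.38 the highest and Timp3 at -0.86 and Timp4 at -0.82 below 0.

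Mmp9 and Mmp12 were near 0. Mmp9, or gelatinase B, which is known to be stored in neutrophils, had 0.101 and 0.168 RPKM in controls, 0.130 and 0.155 RPKM at 7 days and 0.230 and 0.567 RPKM at 28 days. Read back as steps of the smallest value, with a tolerance of 0.05 of a step, these were about 4 and 7 reads, 6 and 7 reads, and 9 and 20 reads, up to a common factor. Both 28 day libraries were above the other 4, and most of the 28 day mean came from replicate 2. Mmp12, or macrophage elastase, had 0.0436 and 0.104 RPKM in controls, 0.458 and 0.325 RPKM at 7 days and 0.111 and 0.122 RPKM at 28 days, which is about 4 and 10 reads, 49 and 34 reads, and 10 and 10 reads. The 7 day libraries were above all others.

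Neither gene was in the test, and with no filter on low values limma gave Mmp12 a log2 change of 0.63 at 7 days against control (adjusted p = 0.0297), and Mmp9 one of 0.02 (adjusted p = 0.984). The size for Mmp12 hung on the 0.5 added to each value. It was 1.51 with 0.1 added and 0.37 with 1 added, and the mean RPKM at 7 days was 5.31 times that of controls. For Mmp9 at 28 days against control the same fit gave 0.48 (adjusted p = 0.283), and the value was 0.75 without 28 day replicate 1 and 0.21 without 28 day replicate 2. The markers of the cells in which these proteases are known were measured beside them. Neutrophil markers, of which 10 of 11 listed were in the table, summed to 4.62 to 5.46 RPKM in controls, 13.1 to 26.1 RPKM at 7 days and 38.3 to 128 RPKM at 28 days, with the highest sum in 28 day replicate 2, the library that was also highest in Mmp9. S100a8 and S100a9, the calprotectin genes, made up most of that sum at 28 days, and Mpo, or myeloperoxidase, was listed at 0 in every library. The part of neutrophils in the Mmp9 level was not tested.

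In RPKM, which is scaled by length, the order of the genes in controls was Timp3, Timp4, Mmp2, Timp2, Mmp23, Timp1, Mmp14, Mmp3, Mmp9 and Mmp12. Neighbours whose libraries overlapped were Mmp2 and Timp2, the run of Mmp23, Timp1 and Mmp14, and Mmp9 and Mmp12. At 7 days Mmp2 came first, followed by Timp1, Timp3 and Timp2 with overlaps between Timp1 and Timp3 and between Timp3 and Timp2, then by Timp4 and Mmp14, which overlapped, and by Mmp23 and Mmp3, which overlapped too. At 28 days Timp3 and Timp4 again came first and apart from each other, followed by Timp2 and Mmp2, which overlapped, then by Timp1. The 6 MMPs summed to 28.1 and 29.6 RPKM in controls, 78.4 and 92.7 RPKM at 7 days and 40.1 and 40.0 RPKM at 28 days. The ratio of this sum to the TIMP sum was 0.214 and 0.233 in controls, 0.649 and 0.635 at 7 days and 0.309 and 0.338 at 28 days, with no overlap between the groups.

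Mmp2 carried 74.3% and 68.8% of the MMP sum in controls, 61.5% and 59.0% at 7 days and 53.7% and 56.8% at 28 days. Mmp14 carried 9.88% and 9.26% in controls, 19.8% and 18.8% at 7 days and 18.1% and 16.7% at 28 days. The share of Mmp14 at 28 days was thus above both control libraries although the sum had come down. Both shares are of the 6 MMPs alone and would be lower with the other MMPs counted. The sums, shares and ratios are descriptions with no test.

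**Figure D4:**
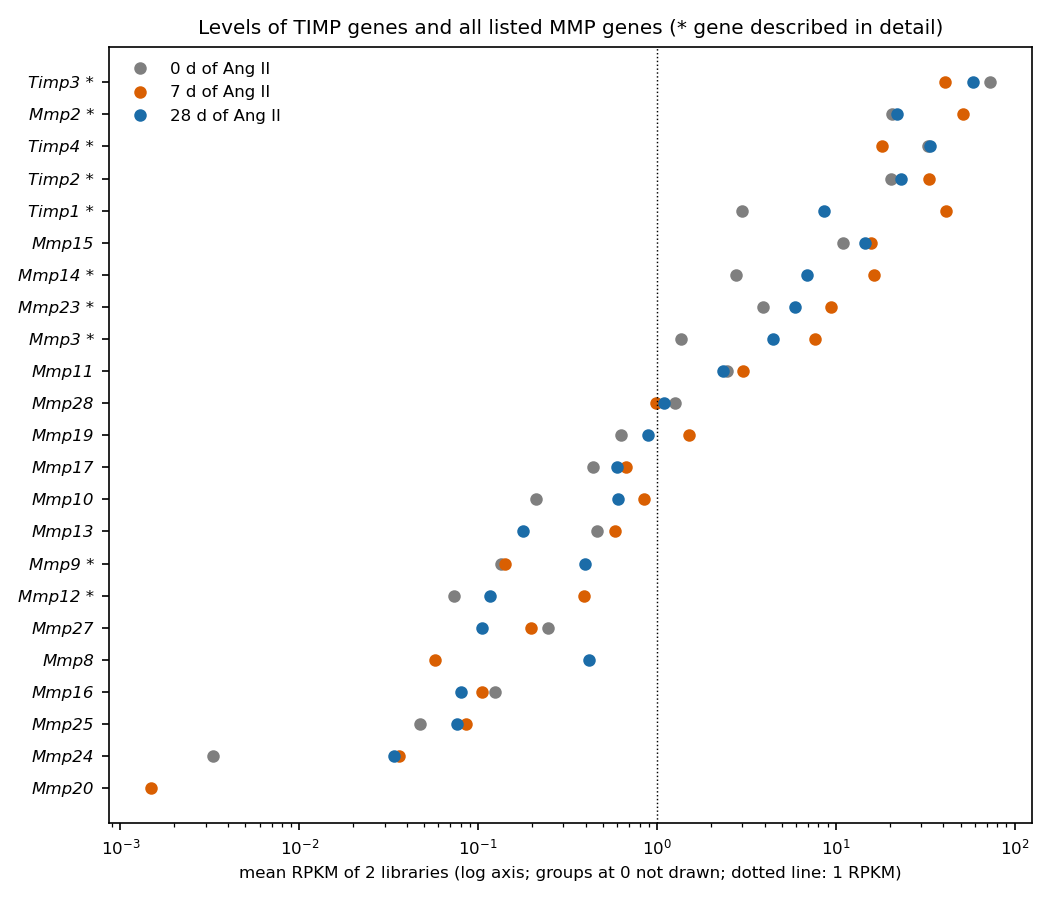
Mean RPKM of the 2 libraries at 0, 7 and 28 days on a log axis for the 4 TIMPs and all listed MMPs, with a dotted line at 1 RPKM; groups at 0 are not drawn. Beside the genes described in detail, Mmp15, Mmp11, Mmp19 and Mmp28 lie near or above the line, and the other MMPs lie below it.

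Most other MMPs were too low to test. Of 17 other MMPs, all in the table, 4 had a mean of at least 1 RPKM, and limma called 0 of these 4 in each comparison, where the 15.4% of all tested genes called at 7 days would be under 1 of 4. At an unadjusted p under 0.05, 2 of the 4 differed at 7 days against control, Mmp15 and Mmp19, and 0 did at 28 days against control or against 7 days. Mmp19 had a control mean of 0.629 RPKM, so it passed the filter only through the infused groups. Its p-values and calls are therefore no independent support. The lowest adjusted p at 7 days was 0.0718, for Mmp19, and 1 of the 4 was called with the 2 groups alone, without 7 day replicate 1 and without either 28 day library. Mmp15, a membrane-anchored relative of Mmp14, had 10.5 and 11.4 RPKM in controls, 14.9 and 16.7 RPKM at 7 days and 11.3 and 17.8 RPKM at 28 days (log2 change 0.51 at 7 days against control, adjusted p = 0.129). Mmp8, the neutrophil collagenase, was listed at 0 in both controls and had 0.0281 and 0.0863 RPKM at 7 days and 0.133 and 0.700 RPKM at 28 days, highest in the library that was highest in Mmp9. Mmp1a, Mmp1b, Mmp7 and Mmp21 were listed at 0 in all 6 libraries. In the GENCODE annotation of GRCm38, Mmp3 and Mmp12 belong to a run of 9 protein-coding MMP genes on chromosome 9 with no other protein-coding gene between them, and Mmp3 was the only one of these with a control mean above 1 RPKM.

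RNA of most of the listed matrix proteins that MMPs cut was higher at 7 days. Of 21 listed substrates, all tested, 17 rose, 0 fell and 4 did not pass at 7 days against control, with a median log2 change of 1.62 beside 0.14 over all tested genes. Over all tested genes, 13.2% were called higher at 7 days, 2.87% higher at 28 days and 4.26% lower at 28 days against 7 days. Spp1, or osteopontin, had 5.64 and 6.88 RPKM at 7 days, against 0.346 and 0.114 RPKM in controls (log2 change 3.22, adjusted p = 0.000483). Col3a1, a fibrillar collagen chain, had 205 and 235 RPKM at 7 days, against 33.7 and 38.0 RPKM in controls (log2 change 2.60, adjusted p = 0.000480). Col1a1, the main fibrillar collagen chain, rose with a log2 change of 2.53 (adjusted p = 0.000874) and Tnc, or tenascin C, with one of 2.47 (adjusted p = 0.000667). Spp1 and Tnc had means of 0.230 and 0.121 RPKM in controls and 0.538 and 0.373 RPKM at 28 days. Both therefore passed the filter only through the 7 day libraries, where they were high, and their calls and places in these counts are no independent support. At 28 days 3 of the 21 were above control, namely the proteoglycans Vcan (log2 change 0.94) and Bgn (0.90) and the basement membrane chain Col4a2 (0.88), and 13 were below their 7 day level, including Spp1 (-2.70), Col3a1 (-2.24), Tnc (-1.98) and Fn1, or fibronectin (-1.95). Without control replicate 1 or without control replicate 2 the 28 day count against control was 0, without 28 day replicate 2 it was 1, and without 7 day replicate 2 the count below the 7 day level was 4.

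The other targets of TIMPs, the ADAM and ADAMTS proteases, had 11 of 16 listed genes tested, of which 7 rose and 0 fell at 7 days against control (median log2 change 0.75). The shares over all tested genes were 13.2% higher at 7 days, 2.87% higher at 28 days and 4.26% lower at 28 days against 7 days. Adamts2, which trims procollagen, had 10.4 and 13.5 RPKM at 7 days, against 3.11 and 3.40 RPKM in controls (log2 change 1.72, adjusted p = 0.000928). Adam19, a membrane sheddase, rose with a log2 change of 1.70 (adjusted p = 0.000848), Adamts15, a proteoglycan-cutting protease, with one of 1.32 and Adam15 with one of 0.80. Adamts15 had a control mean of 0.923 RPKM, so it passed the filter through the infused groups. Adamts1, a proteoglycan-cutting protease (log2 change 2.16, adjusted p = 0.0402), and Adam19 (0.80, adjusted p = 0.0249) were higher at 28 days than in controls. Adamts1 had 44.2 and 15.4 RPKM at 28 days, against 5.33 and 5.59 RPKM in controls, so its replicates were far apart. Adamts2, Adam19 and the sheddases Adam17 and Adam10 were lower at 28 days than at 7 days, with log2 changes of -1.14, -0.90, -0.55 and -0.55. The 7 day count was 2 without control replicate 1, without control replicate 2 or without 7 day replicate 2, and 4 with median ratio scaling. Against control at 28 days the count was 0 without control replicate 1 or without control replicate 2, and 1 without either 7 day library or without 28 day replicate 2. Against 7 days it was 0 without 7 day replicate 2, 1 without 28 day replicate 1 and 2 without 7 day replicate 1 or either control library.

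Beside 13.2% of all tested genes called higher at 7 days and 4.26% called lower at 28 days against 7 days stood a short list of proteases and regulators that set MMP activation. Of its 10 tested genes, 3 rose and 0 fell at 7 days (median log2 change 0.63). The 3 were Plat, the tissue plasminogen activator (log2 change 1.24, adjusted p = 0.00144), Serpine2, a serpin that blocks plasminogen activators (1.04, adjusted p = 0.00346), and Plaur, the receptor of urokinase (0.96, adjusted p = 0.0341), so that an activator and an inhibitor rose together. At 28 days against control 0 of the 10 were called by limma, and 4 had an unadjusted p under 0.05. Plau, or urokinase, Serpine2 and Plat were lower at 28 days than at 7 days, with log2 changes of -1.11, -0.79 and -0.76. The count against 7 days was 0 without 7 day replicate 2 and 1 without 7 day replicate 1.

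Other inhibitors and cofactors of MMPs had 10 tested genes, of which 5 rose and 0 fell at 7 days (median log2 change 0.43). Of all tested genes, 13.2% were called higher at 7 days and 2.87% at 28 days. Thbs1, a matrix protein known to bind MMPs, had 11.98 and 9.35 RPKM at 7 days and 10.3 and 3.79 RPKM at 28 days, against 1.17 and 0.976 RPKM in controls, and rose at both times (log2 change 2.82, adjusted p = 0.00481 at 7 days; 2.11, adjusted p = 0.0313 at 28 days). Cd44, which docks MMPs at the cell surface (log2 change 1.06), Tfpi2, a serine protease inhibitor (0.78), and Lrp1, the receptor that takes up MMPs and TIMPs (0.77), rose at 7 days. Tfpi2 had a control mean of 0.756 RPKM and passed the filter only through the 7 day libraries. Reck, the membrane-anchored MMP inhibitor, had 1.55 and 1.87 RPKM at 7 days, against 1.34 and 1.73 RPKM in controls (log2 change 0.12, adjusted p = 0.679). Limma called 0 of the 10 at 28 days against 7 days, and 4 had an unadjusted p under 0.05. Median ratio scaling gave 2 calls at 7 days, and the count was 1 without control replicate 1, 2 without control replicate 2 or 7 day replicate 2 and 3 without 7 day replicate 1. The Thbs1 call at 28 days was the only one in that comparison, and it was lost when any control or 7 day library was left out.

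Of 16 tested inducers and receptors, 8 rose and 0 fell at 7 days (median log2 change 0.61). All tested genes had shares of 13.2% called higher at 7 days, 2.87% higher at 28 days and 4.26% lower at 28 days against 7 days. Ace, the enzyme that makes Ang II, had 20.4 and 25.9 RPKM at 7 days, against 10.7 and 9.60 RPKM in controls (log2 change 1.14, adjusted p = 0.00314). The transforming growth factors Tgfb2, Tgfb3 and Tgfb1, which are known inducers of Timp1 and of collagen, rose with log2 changes of 1.09, 1.05 and 1.04. At 28 days against control Tgfb2 (log2 change 1.36, adjusted p = 0.0115), Agt, the precursor of Ang II (1.04, adjusted p = 0.0115), and Tgfb1 (0.65, adjusted p = 0.0494) were higher, and at 28 days against 7 days Ace alone of the list passed, lower (log2 change -0.92). Among 14 tested transcription factors known at TIMP or MMP promoters 6 rose and 0 fell at 7 days (median log2 change 0.60), beside the same shares of all tested genes. The 6 included Ets1 (log2 change 0.77), Stat3 (0.73), Rela (0.61) and Jund (0.61). At 28 days Jund was above control (log2 change 0.80, adjusted p = 0.0318), and Ets1 was below its 7 day level (-0.66, adjusted p = 0.0474).

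These counts moved with single libraries. The 7 day count of inducers and receptors was 4 without either control library and 3 without 7 day replicate 2, and at 28 days against control it was 0 without either control library and 2 without either 7 day library. The call of Ace against 7 days was lost without 7 day replicate 2 or 28 day replicate 1, and the count was 2 without 28 day replicate 2. The 7 day count of transcription factors was 0 without control replicate 1, 1 without control replicate 2 or 7 day replicate 2, 2 without 7 day replicate 1 and 3 with median ratio scaling, and the Jund call at 28 days was lost when any control or 7 day library was left out. The Ets1 call against 7 days was lost when any library but 28 day replicate 2 was left out, and 2 factors were called without that one.

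**Figure D5:**
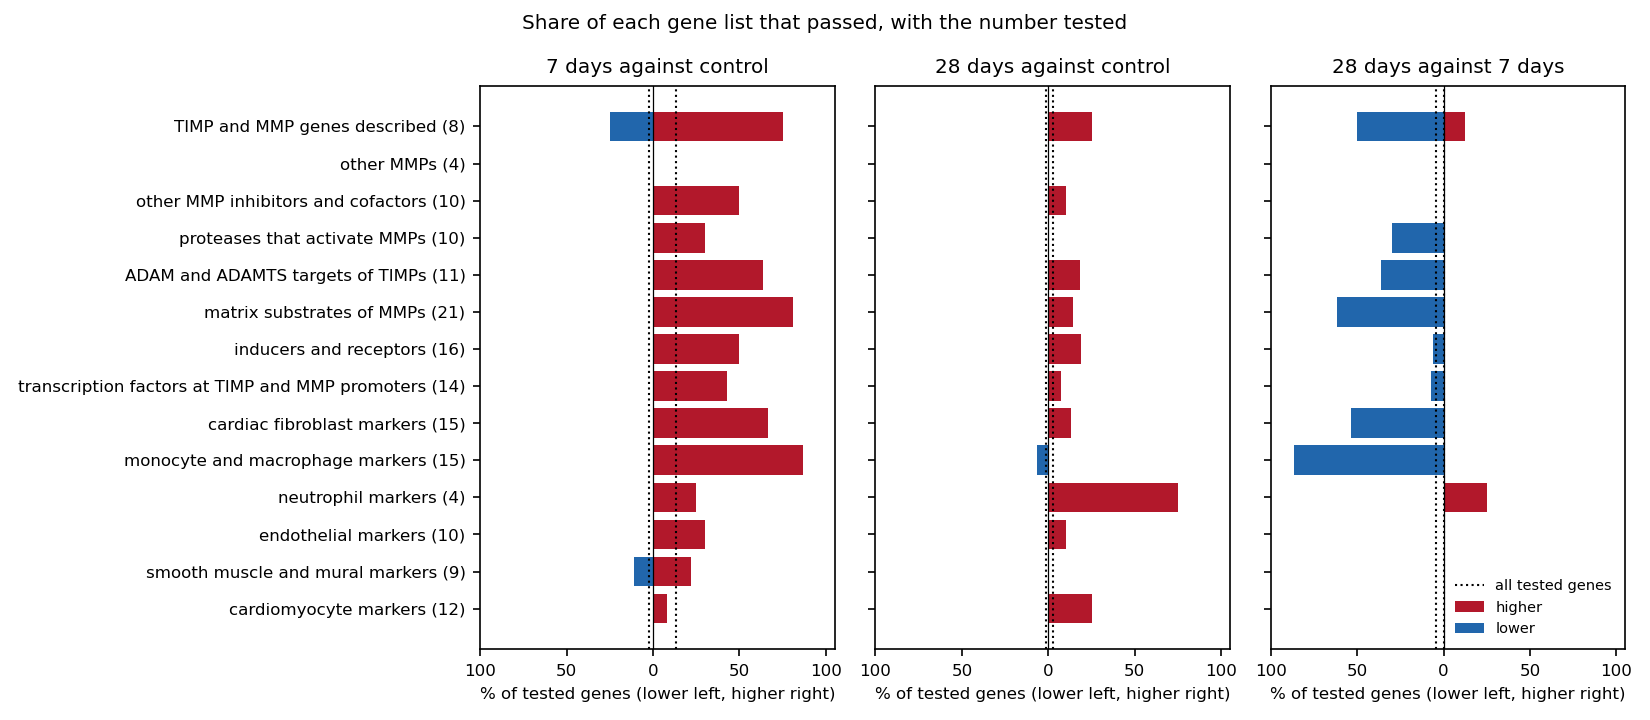
Bars give the percent of tested genes called higher (to the right) and lower (to the left) in each comparison. Every gene list but the atrial and mesothelial markers is drawn, with the number tested in brackets. Dotted lines are the shares over all 11096 tested genes. At 7 days against control all 8 tested TIMP and MMP genes and 17 of 21 matrix substrates are called, while 0 of 4 other MMPs are. The genes and lists were chosen with earlier results of these data known.

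Markers of fibroblasts and macrophages were also higher at 7 days. Of 15 cardiac fibroblast markers 10 were higher and 0 lower at 7 days against control, and of 15 monocyte and macrophage markers 13 were higher and 0 lower, with median log2 changes of 0.99 and 0.92. The summed fibroblast markers were 1066 and 1102 RPKM in controls, 1484 and 1485 RPKM at 7 days and 1191 and 977 RPKM at 28 days. Of the 15, Col1a2, Vim and Mfap5 were among the 10 called at 7 days, and Pdgfra, Ddr2 and Tcf21 were among the 5 not called. Col1a2 and Dcn were also in the list of matrix substrates, so the counts of these lists are not separate. The summed macrophage markers were 392 and 399 RPKM in controls, 658 and 737 RPKM at 7 days and 359 and 264 RPKM at 28 days. The 7 day macrophage count was 6 without control replicate 1, 6 without control replicate 2, 4 without 7 day replicate 2 and 7 with median ratio scaling. Among the other marker lists, 1 of 4 tested neutrophil, 3 of 10 endothelial, 1 of 12 cardiomyocyte and 1 of 3 mesothelial markers were higher at 7 days, and of 9 smooth muscle and mural markers 2 were higher and 1 lower, beside 13.2% of all tested genes called higher. Leaving out a library gave 0 to 3 neutrophil, 1 to 4 endothelial, 0 to 3 cardiomyocyte, 0 to 1 mesothelial and 0 to 5 smooth muscle and mural calls, each at its lowest without control replicate 1 and without control replicate 2. Limma called 0 of 4 atrial markers at 7 days, 0 had an unadjusted p under 0.05, and 3 were called lower without control replicate 1 and 1 higher without control replicate 2. Against control at 28 days 3 of the 4 neutrophil markers were higher, beside 2.87% of all tested genes, and this count fell when any control or 7 day library was left out. In bulk tissue a change in the number of cells of a type and a change in RNA per cell cannot be told apart, and the part of cell numbers in the TIMP and MMP levels was not tested.

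The nearest profiles to each called gene, by the root mean square difference of centred log2 values over the 6 libraries, were listed as a description. Timp1 was nearest to Postn (difference 0.24), Serpina3n (0.25), Cilp (0.29), Thbs4 (0.32) and Cthrc1 (0.35), and Postn averaged 13.7, 148 and 25.7 RPKM at 0, 7 and 28 days. Mmp14 was nearest to Meox1 (0.13), Aldh1a2, Fbn1, Bgn and Clu (0.19). Mmp2 was nearest to Dok1 (0.05), Pdgfrl, Col14a1, Fndc1 and Mpeg1 (0.09), a list that holds the collagen Col14a1 and the macrophage gene Mpeg1. Mmp3 was nearest to Hp, C3 and C4b, which encode haptoglobin and complement proteins, and to Igf2bp2 and Uck2. Mmp23 was nearest to Snai1, Bcl3, Vwa1, Lxn and Mobkl2a, and Timp2 to Tpd52, Npc2, Dtx4, Atg7 and Zfp954. The genes near Timp3 included Mdm4, Klf15, Agap2 and Zfp167, and Timp4 was nearest to Pim3, Agap2, Galntl2, Klf15 and Ankrd9, so that Klf15 and Agap2 were on both lists. The closest pair among the 8 was Timp3 and Timp4, with a difference of 0.18. These profiles share all 6 libraries. Cthrc1, Thbs4, Hp, Igf2bp2, Snai1 and Bcl3 had control means under 1 RPKM and passed the filter only through the infused groups. Their places among the nearest profiles are no independent support.

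Several of the genes share their locus with another gene in the GENCODE annotation. Timp1, Timp3 and Timp4 each lie inside a synapsin gene on the opposite strand, and whether the counting used strand is not given in the sources used here. Syn1 around Timp1 had 0.0497 and 0 RPKM in controls, 0.256 and 0.216 RPKM at 7 days and 0.0505 and 0.112 RPKM at 28 days. Syn3 around Timp3 stayed between 0.134 and 0.193 RPKM, and Syn2 around Timp4 between 0.863 and 1.23 RPKM. The hosts were thus far below the TIMPs inside them in every library. Mmp12 overlaps Mmp1b, which was listed at 0 throughout.

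Scaling moved the zero line but no 7 day call of these genes. With median ratio scaling the median log2 change of all tested genes at 7 days was -0.02, beside 0.14 on the deposited scale, and the share of higher among called genes was 61.2%, beside 85.3%. Quantile normalization gave 57.1% higher. At 28 days against 7 days the share of higher calls was 8.69% on the deposited scale, 22.8% with median ratio scaling and 20.8% with quantile normalization. Relative to the median of all tested genes, the 7 day log2 changes were 3.45 for Timp1, 0.56 for Timp2, -0.995 for Timp3, -0.96 for Timp4, 1.16 for Mmp2, 1.92 for Mmp3, 2.24 for Mmp14 and 1.06 for Mmp23. All 8 kept their direction and their call at 7 days under both rescalings.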

How the data were processed

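RNA-seq of total heart RNA on an Illumina HiSeq gave 6 libraries, 2 for each of 3 groups. Per the file headers, the authors deposited RPKM values. The builds mm8 and mm9, DESeq2, HTSeq, Bowtie 0.12.9 and TopHat2 2.0.12 are named in the submitters' processing notes with no roles; how RPKM was computed, with which annotation and whether by strand, is not given in the sources used here. RPKM keeps a gene's level relative to all mapped reads of its library, so a few abundant genes can shift all others. Total read numbers are unknown, and relative depth was read from the steps of low values.

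Values were tested as log2(RPKM + 0.5) with limma 3.58.1 in R 4.3.3 (group means over all 6 libraries, moderated variances with a mean trend, residual degrees of freedom 3) on the 11096 genes that reached a mean RPKM of 1, with Benjamini-Hochberg adjustment over all of them in each of 3 comparisons. RPKM is not a count, so no count model was used. The fit was tested on simulated data. Python 3.11.15 with pandas 2.3.3, numpy 2.4.6, scipy 1.17.1 and matplotlib 3.10.9 made the summaries and figures. The 10 genes, the 7 pathway lists and the 8 marker lists together held 223 different genes, of which 222 were in the table, 1 under an older symbol. The members and lists were chosen with earlier results of these data known. Named beside the 10 genes were, for each list and comparison, up to 4 called genes with the largest change, and for each called gene the 5 nearest profiles; Cd63 was called but outside this rule, and Reck, Mmp8, Mmp15, Myl7 and the markers were named after their values were seen. The reference annotation and promoter windows are of GRCm38, another build than those of the notes, so gene positions in the files were not used. Alternatives were other pseudocounts (0.1, 1), filters (none, 5), scalings, no variance trend, the 2 groups alone, a replicate block, leaving out each library, and an unadjusted p under 0.05 with a fold of 2 at 7 days and 1.5 at 28 days. Protein sequences were not used here, and 1 of the nearest profiles is not reported here.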

Additional observations from a re-analysis of the deposited data

Results flagged for a closer look

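The change at 28 days differed from that at 7 days for 5 of the 8 tested genes, by the limma contrast of the 28 day and 7 day libraries, in which the shared controls cancel. The difference, as the log2 change at 28 days minus that at 7 days, was -2.21 for Timp1, -0.51 for Timp2, 0.87 for Timp4, -1.20 for Mmp2 and -1.19 for Mmp14. In each case every 28 day library lay on one side of every 7 day library. Timp1 and Mmp14 had 28 day libraries above both controls and passed the test against control as well, and Timp2, Mmp2 and Timp4 had 95% intervals against control at 28 days that included 0. Of these 5, Mmp2 alone held without each library in turn.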

How the results depend on the processing

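Over the 10 genes and the alternatives that could be run, 143 of 159 values at 7 days against control, 150 of 159 at 28 days against control and 139 of 159 at 28 days against 7 days kept their direction and their side of the threshold or, for the untested Mmp9 and Mmp12, moved by less than the replicate SD. Mmp9 at 7 days against control, with a log2 change of 0.02, changed sign within that SD, to -0.017 with median ratio scaling and between -0.058 and 0.096 without a library. Of the 8 calls at 7 days, 5 stayed with an unadjusted p under 0.05 and a fold of 2, and leaving out a library gave 3 to 8. Of the 2 at 28 days, Mmp14 stayed and Timp1 was lost with no filter, which leaves 1, and leaving out a library gave 0 to 2. Of the 5 between 28 and 7 days, leaving out a library gave 1 to 4. Timp4 at 28 days against control had a log2 change of -0.047 with quantile normalization and between -0.036 and 0.12 without a library, beside 0.04. Genes called at 7 days numbered 1713, 445 with the unadjusted p and fold, and 392 to 2252 without a library. At 28 days they numbered 489, 61 with no filter, 234 from the 2 groups alone, 808 with the unadjusted p and fold, and 33 to 384 without a library. Between 28 and 7 days they numbered 518, 264 with no filter, 295 with a mean RPKM of at least 5, 281 with median ratio scaling, 265 with quantile normalization, 287 from the 2 groups alone, 859 with the unadjusted p and fold, and 27 to 689 without a library. Median ratio scaling gave mean TIMP sums of 123 RPKM at 7 days and 128 RPKM at 28 days, against 134 RPKM in controls, beside 133, 124 and 129 RPKM on the deposited scale, so the order of 7 days and control turned round. It gave mean MMP sums of 79.2 RPKM at 7 days and 41.2 RPKM at 28 days, against 30.0 RPKM in controls, beside 85.6, 40.0 and 28.8 RPKM. The causes were not tested. Same-numbered libraries did not deviate together (correlations 0.15, -0.02 and -0.01), so the numbers were not taken as pairs; with the replicate block 8, 2 and 4 of the genes were called, Timp2 at 28 days against 7 days being lost, and 1496, 359 and 354 genes in all. With 2 libraries a group and unknown read totals small changes can be missed, and Mmp9 and Mmp12 rest on few reads. A filter at a mean of 5 left Mmp3 untested.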
